A study of Cyprinus carpio with 6 samples.

Results

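The features described here were carried by a single gonad library of juvenile common carp (Cyprinus carpio), which means that 1 of 6 libraries held at least 90% of their normalized reads. They numbered 36, 8 lncRNAs and 28 mRNAs. They came from 4914 of the 60206 features in the count table, those with at least 100 counts and not among 200 abundant ones set aside. Gonads were taken from fish of a strain labelled FFRC, which the methods call FFRC No. 2, at 8 weeks post hatching, 24 h after an intraperitoneal injection. The control group received water and carries the label WT (control 1, 2 and 3), and the treatment group received igf3-dsRNA at 5 μg/g body weight and carries the label igf3-knockdown (igf3-dsRNA 1, 2 and 3). From each group of 15 fish, 9 were sampled, and the methods speak of 6 sequenced individuals, as many as there are libraries.

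Igf3 belongs to the insulin-like growth factors and acts on germ cell development in the gonads of fish. For common carp, the paper cites high igf3 mRNA in both gonads and blood. Injected double-stranded RNA is used to lower an mRNA by RNA interference. LncRNAs are long transcripts that encode no protein, and many are known for expression restricted to a tissue or stage. A bulk library averages over all cells of the sampled gonad, so fewer cells of a type and less RNA per cell cannot be told apart in its counts. Features are lncRNAs where the ID begins with MSTRG and mRNAs where it begins with CAFS, a reading made from the IDs. The RefSeq gene table for the species held 0 of the 60206 IDs, and gene names, roles, positions and sequences are therefore not given. For the same reason igf3 itself was not followed in the libraries, and the tissue was not checked by marker genes.

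The features were chosen on the values described below, so those values carry no test. Counts were divided by the total on features of each library, and multiplied by 1000000 to give CPM. The 100 lncRNAs and 100 mRNAs of highest mean CPM were set aside, and 4914 of the remaining features had at least 100 counts over the 6 libraries (1831 lncRNAs and 3083 mRNAs). Those with at least 90% of their summed CPM in 1 library were kept, up to a limit of 200 that was not reached. They were 0.733% of the 4914 features, 0.437% of the lncRNAs and 0.908% of the mRNAs. None of the 200 abundant features set aside had such a share (0 of 200). The totals on features ranged from 2064856 counts in igf3-dsRNA 3 to 3166031 in control 2, so that 3 counts, the floor used for a count of 0, corresponded to 0.948 to 1.45 CPM. Intervals and floors cover the error of counting only.

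For a feature spread evenly over the libraries, the largest share would be 16.7%. Over the 4914 features the largest share had a median of 27.9%, with 53.4% at the 95th percentile and 83.6% at the 99th. More than 50% of the summed CPM was in 1 library for 306 features (6.23%) and more than 80% for 60 (1.22%). Just inside the threshold was CAFS_CommonCarp_T_00239240 with a share of 90.1%, and just outside it CAFS_CommonCarp_T_00097666 with 89.2%. At the count limit, CAFS_CommonCarp_T_00277887 had 101 counts and CAFS_CommonCarp_T_00235958, left out, had 98. No gap in the distribution separates the 36 features from the rest.

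**Figure D1:**
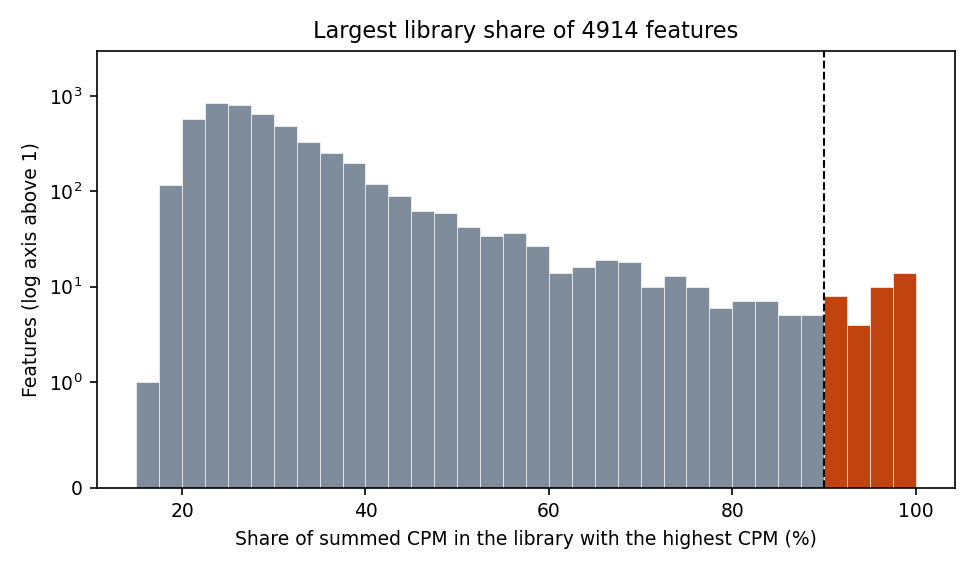
Largest share of the summed CPM held by any single library (x axis, %) for 4914 features (y axis, number of features, logarithmic above 1). The dashed line marks 90%, and the 36 features beyond it are drawn in red. They end a tail that begins above the median of 27.9%. This tail does not thin out to its end, with 5 features from 87.5 to 90% and 14 from 97.5 to 100%.

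Outside the carrying library, reads of the 36 features were scarce. Of the 180 values in libraries that did not carry the feature, 81 (45%) were at 0 counts, 48 at 1 to 3 counts and 51 over 3 counts. Only 6 were over 20 counts, the highest being 95. In 11 features every other library had at most 3 counts. The remaining 25 had a ratio of the carrying library to the next of 9.46 to 214 (median 26.7, on CPM). The next library belonged to the same group for 14 of these and to the other group for 11, where 2 of the 5 other libraries are of the same group.

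Every library carried some of the features, but not in like numbers. Control 1 carried 5, control 2 carried 1, control 3 carried 9, and igf3-dsRNA 1, 2 and 3 carried 5, 4 and 12. The control group thus carried 15 and the treatment group 21. Igf3-dsRNA 3 had the largest TMM factor of the libraries (1.28), followed by control 3 (1.12), and control 2 had the smallest (0.798). TMM factors are edgeR's correction of library totals for differences in how reads are spread over features. Igf3-dsRNA 3 and control 3 also had the highest CPM most often over all 4914 features, in 31.1% and 24.1% of them, whereas each other library had it in 9.08 to 12.2%. With library totals scaled by these factors, igf3-dsRNA 3 and control 3 carried 8 each, and control libraries carried 15 of 31 features. Under that scaling 30 of the 36 features kept the share of 90%, 6 fell below it and 1 other feature passed it. The carried features held little of a library, at most 0.298% of the counts of igf3-dsRNA 3 (95% Clopper-Pearson interval 0.290 to 0.305%) and 0.0255% of those of igf3-dsRNA 2 at the lowest (0.0237 to 0.0273%). The number of features with any count did not follow the order of carried features. It was highest in control 2, at 24965, and lowest in control 3, at 16530.

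**Figure D2:**
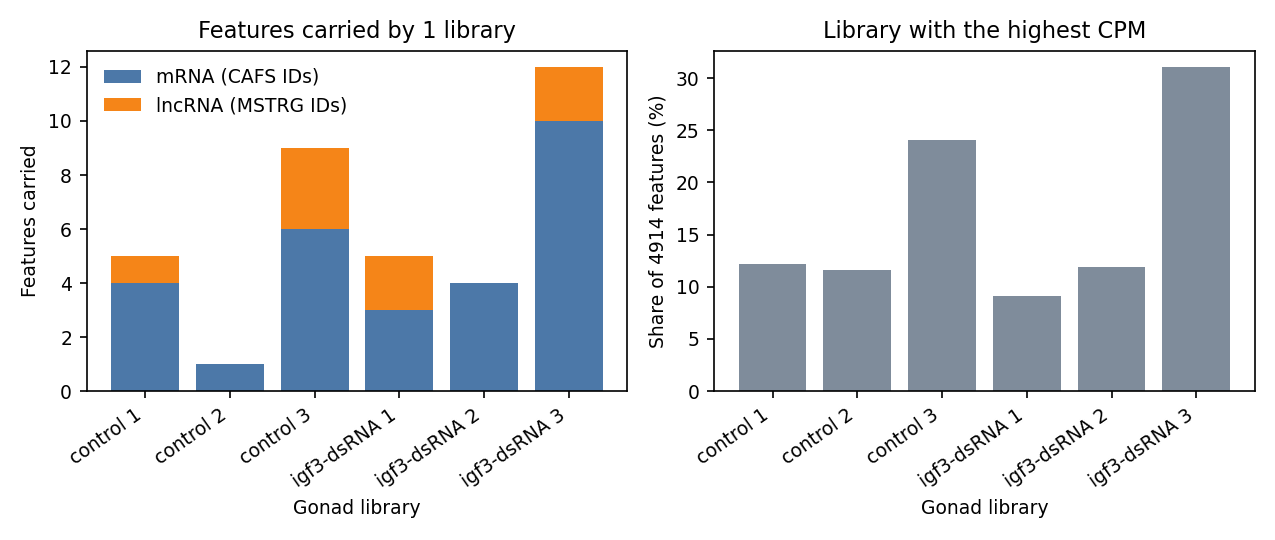
Left, number of features carried by each library (y axis), split into mRNAs and lncRNAs. Right, share of the 4914 features (y axis, %) that had their highest CPM in each library. Igf3-dsRNA 3 with 12 and control 3 with 9 carried features lead in both panels, and control 2 carried 1.

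The 8 lncRNAs were short, from 201 to 311 bp with a median of 286 bp (286.5), against a median of 291 bp and a range of 201 to 3316 bp over the 1831 lncRNAs they were drawn from. All 8 were under 500 bp, as were 88.5% of the 1831. Ranks below are among all features with a count, not among the 1831. The level of the 8 lncRNAs per length was partly fixed by the rule, because at least 100 counts on a short feature give a high value. Their RPKM (the authors' count per length of feature and per number of clean reads) was 4.38 to 86.4 with a median of 22.9, and they ranked 57 to 805 by RPKM among the 16530 to 21463 features with a count in their carrying libraries.

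For MSTRG.42108, control 1 to 3 gave 12, 10 and 1 counts, and igf3-dsRNA 1 to 3 gave 95, 3 and 2292. Counts of other features follow in the same order. Its level in igf3-dsRNA 3 was 86.4 RPKM, the highest of the 36 features and rank 57 in that library. MSTRG.13209, also carried by igf3-dsRNA 3, had 7, 6 and 4 counts among the controls, against 72, 19 and 1116 after igf3-dsRNA. In both lncRNAs igf3-dsRNA 1 came next, and for MSTRG.13209 every igf3-dsRNA library was above every control library. The groups overlapped for MSTRG.42108, because igf3-dsRNA 2 had fewer counts than control 1 and control 2.

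Control 3 carried 3 lncRNAs. MSTRG.51187 had 1, 6 and 1791 counts among the controls, against 0, 8 and 12 after igf3-dsRNA. Its mean was 239 ± 412 CPM (SD, n = 3) in the control group and 2.79 ± 2.91 CPM (SD, n = 3) in the treatment group. The other control libraries, at 0.398 and 1.90 CPM, lay within the range of the igf3-dsRNA libraries of 0 to 5.81 CPM. MSTRG.4216 had 4, 0 and 854 counts among the controls, against 1, 2 and 0 after igf3-dsRNA, and the ratio of control 3 to control 1 was 214, the largest of the 25 ratios. MSTRG.22668, the shortest of the lncRNAs at 201 bp, had 0, 0 and 206 counts against 2, 4 and 5.

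Control 1 carried MSTRG.18820, with 567, 0 and 5 counts among the controls, against 2, 2 and 0 after igf3-dsRNA. Igf3-dsRNA 1 carried the last pair of lncRNAs. MSTRG.46436 had 0 counts in every control library and 194, 10 and 0 in the igf3-dsRNA libraries. MSTRG.19470 had 0, 13 and 0 counts against 88, 0 and 0, so that a control library came next, and its share of 90.4% was near the threshold. Control 2 and igf3-dsRNA 2 carried 0 lncRNAs.

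The 28 mRNAs were at a lower level per length. In the carrying library their RPKM was 0.160 to 21.6 with a median of 0.896, and their rank by RPKM was 168 at the highest and 4366 at the lowest. They were 400 to 8323 bp long with a median of 2294 bp (2294.5), against 2738 bp over the 3083 mRNAs they were drawn from (quartiles 1654 and 4192 bp). Under 1000 bp were 4 of the 28 (14.3%) and 8.92% of the 3083. Their summed counts had a median of 205, against 718 (718.5) for the lncRNAs. The minimum of 100 counts bears on length and level alike, and no test was made of these differences.

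The mRNA with most counts was CAFS_CommonCarp_T_00194728, with 2, 2 and 1 counts among the controls, against 2932, 3 and 0 after igf3-dsRNA. Its level was 1294 CPM in igf3-dsRNA 1, where it ranked 84 by counts, and under 1 CPM in every other library. The treatment group mean of 432 ± 747 CPM (SD, n = 3) rested on that library. The third mRNA of this library, CAFS_CommonCarp_T_00038020, had 114 counts there and at most 4 elsewhere. Igf3-dsRNA 1 also carried CAFS_CommonCarp_T_00220460, with 0 counts in every control library and 248, 21 and 0 in the igf3-dsRNA libraries.

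Igf3-dsRNA 3 carried 10 mRNAs. CAFS_CommonCarp_T_00104156 had 39, 20 and 12 counts among the controls, against 12, 18 and 821 after igf3-dsRNA, and was the only one of the 36 features with at least 10 counts in every library. CAFS_CommonCarp_T_00060859 had 3, 6 and 9 counts against 1, 5 and 562. In both, the igf3-dsRNA libraries other than the carrying one lay within or below the control libraries. The other 8 mRNAs of igf3-dsRNA 3 had 88 to 497 counts there, among them CAFS_CommonCarp_T_00205037 with 0, 2 and 0 counts against 0, 1 and 497.

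Control 3 carried 6 mRNAs. CAFS_CommonCarp_T_00128308 had 0, 86 and 877 counts among the controls, against 3, 5 and 0 after igf3-dsRNA. CAFS_CommonCarp_T_00103937 had 0, 1 and 486 counts against 0, 0 and 17, so that its next library was igf3-dsRNA 3. CAFS_CommonCarp_T_00112860 had 0, 12 and 209 counts against 1, 6 and 1. The other 3, CAFS_CommonCarp_T_00237418, CAFS_CommonCarp_T_00192370 and CAFS_CommonCarp_T_00046993, had 272, 189 and 139 counts in control 3 and at most 4 in any other library. CAFS_CommonCarp_T_00046993 was the longest of the 36 at 8323 bp and the lowest per length at 0.160 RPKM. Reads of CAFS_CommonCarp_T_00128308 and CAFS_CommonCarp_T_00112860 were shared with control 2, though at 27.2 and 3.79 CPM against 350 and 83.4 CPM in control 3.

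Control 1 carried 4 mRNAs. CAFS_CommonCarp_T_00052776 had 866, 9 and 2 counts among the controls, against 4, 0 and 7 after igf3-dsRNA. CAFS_CommonCarp_T_00239240 had 590, 5 and 1 counts against 4, 1 and 45, and its next library was igf3-dsRNA 3. CAFS_CommonCarp_T_00247628 had 156 counts in control 1, 3 in control 2 and 0 elsewhere. The only feature carried by control 2 was CAFS_CommonCarp_T_00058530, with 16, 825 and 19 counts against 5, 2 and 13. Its groups did not overlap after TMM normalization, although the raw counts of igf3-dsRNA 3 were close to those of control 1.

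Igf3-dsRNA 2 carried 4 mRNAs. CAFS_CommonCarp_T_00276083 had 0, 2 and 1 counts among the controls, against 0, 269 and 4 after igf3-dsRNA. CAFS_CommonCarp_T_00134721 had 0, 0 and 1 counts against 4, 200 and 1. The shortest mRNA, CAFS_CommonCarp_T_00095482 at 400 bp, had 122 counts in igf3-dsRNA 2 and at most 2 elsewhere. CAFS_CommonCarp_T_00140448 was found in igf3-dsRNA 2 alone, with 202 counts there and 0 in each of the other 5 libraries. Set against the highest floor of those libraries (3 counts in igf3-dsRNA 3), its CPM was at least 44.7-fold higher in igf3-dsRNA 2. CAFS_CommonCarp_T_00134751, with 114 counts in control 1 and 0 elsewhere, was the other feature of this kind, at least 31.2-fold higher against the same floor. Its ID number is 30 from that of CAFS_CommonCarp_T_00134721, the smallest distance between mRNAs of the set, but different libraries carried them.

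**Figure D3:**
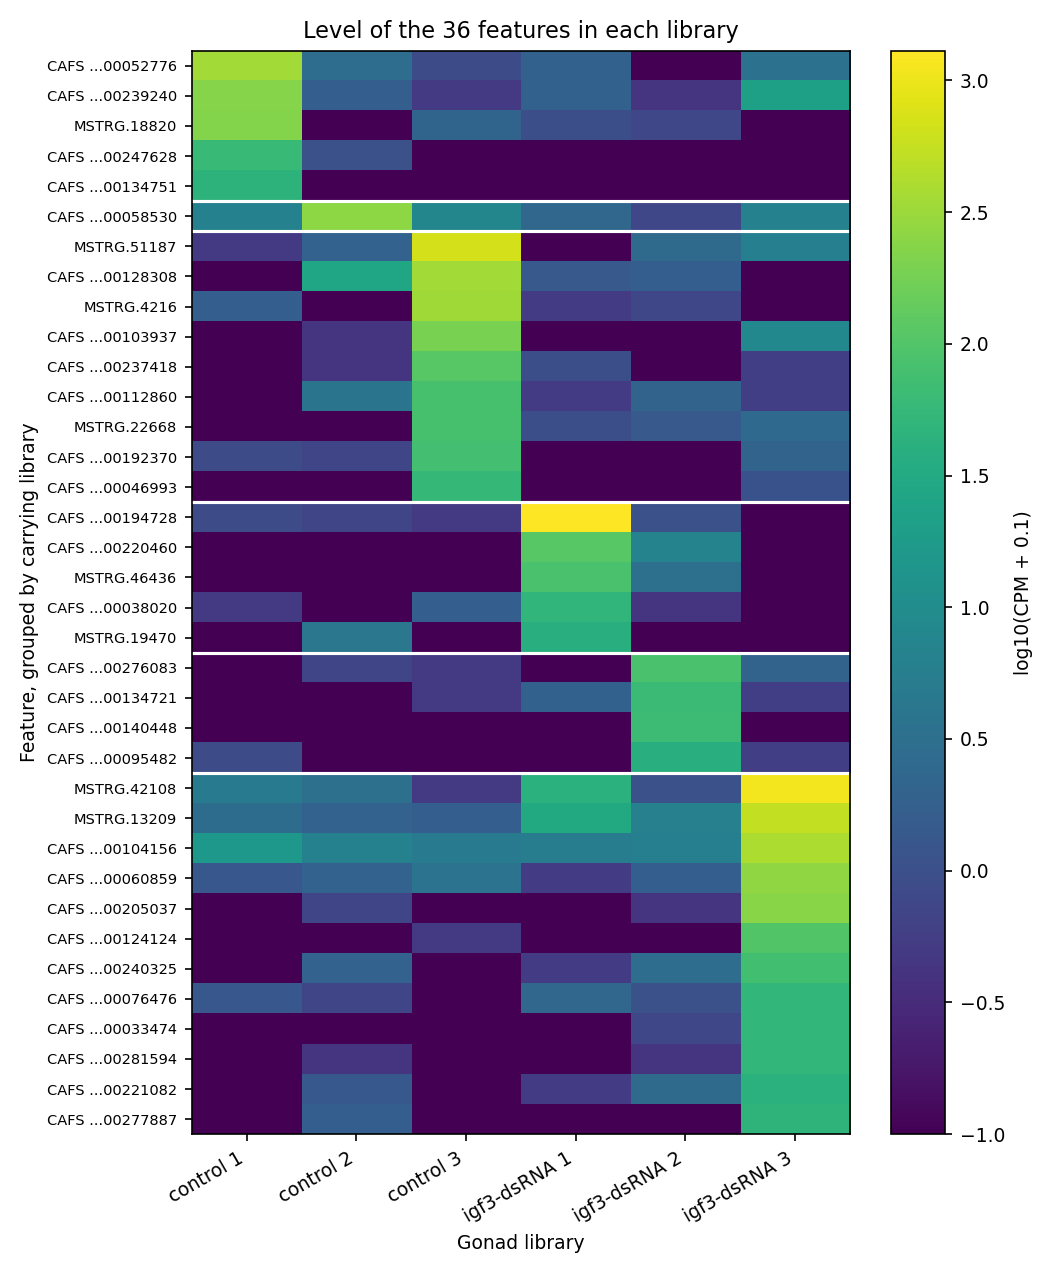
Level of each of the 36 features (rows, grouped by carrying library from control 1 at the top to igf3-dsRNA 3 at the bottom) in each library (columns), as log10(CPM + 0.1). Each block is bright in 1 column, and the clearest second columns are igf3-dsRNA 1 for MSTRG.42108 and MSTRG.13209 and control 2 for CAFS_CommonCarp_T_00128308.

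The features did not come in runs of neighbouring IDs. No 2 of the 36 had consecutive ID numbers (0 pairs). The nearest ID of the same class in the table on either side of each feature was then looked at, a step chosen after values were seen. Of these 72 IDs, 29 had 0 counts in every library and 49 had 0 counts in the carrying library. Only 2 had 10 or more counts in it. MSTRG.46437, next to MSTRG.46436, had 26 counts in igf3-dsRNA 1, 1 in igf3-dsRNA 2 and 0 in the other libraries, the same order of libraries as its neighbour. CAFS_CommonCarp_T_00047004, near CAFS_CommonCarp_T_00046993, had 78 to 163 counts in all 6 libraries. Whether near ID numbers stand for near positions in the genome is not stated in the sources used here.

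Of the 40 lncRNAs and mRNAs for which the study designed primers and compared qRT-PCR with sequencing, 10 were among the 36 features (25% of the 40 and 27.8% of the 36). They were the lncRNAs MSTRG.42108, MSTRG.51187, MSTRG.13209 and MSTRG.18820, and the mRNAs CAFS_CommonCarp_T_00128308, CAFS_CommonCarp_T_00052776, CAFS_CommonCarp_T_00239240, CAFS_CommonCarp_T_00276083, CAFS_CommonCarp_T_00220460 and CAFS_CommonCarp_T_00112860. Every library other than control 2 carried at least 1 of them. The study used RNA of the sequenced individuals for qRT-PCR. It reports the same direction of change as in sequencing for every lncRNA and mRNA that it compared. Over the 40, the median of the largest library share was 71.5%, against 27.9% over the 4914 features. By the paper's account, the 40 were drawn at random from those it called different between these same libraries. Neither value is therefore independent of the counts. Without a filter on low counts, edgeR's quasi-likelihood test called 29 of the 40, all 10 among them, and 0.292% of all features. The exact test without the filter called 21 of the 40 (0.195% of all features). The filter did not keep all of the 40. Of the 10, only MSTRG.42108 and MSTRG.13209 passed it, so the rest were not tested in the filtered fits. With the filter, the quasi-likelihood test called 0 of the 40 and 0% of all tested. On the filtered features DESeq2 called 7 (0.258% of all), and edgeR's exact and likelihood ratio tests 5 each (0.154% and 0.188%). DESeq2 and the latter pair of tests each called 1 of the 10.

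The groups were then compared over the whole table, because a feature carried by 1 library also differs between group means. In all 36 features the SD of the carrying group was larger than its mean CPM (n = 3 libraries). The rule had fixed this, because a share at or over its threshold in 1 library allows no other outcome. The mean of the other group was 0 to 8.87 CPM. EdgeR's quasi-likelihood test with TMM factors was applied to the 5843 features that passed its filter on low counts, with Benjamini-Hochberg adjustment over all of them. A call needed an adjusted p below 0.05 together with a log2 fold change beyond 1 in size. The share of tested features called was 0%. The filter, which needs counts in several libraries, kept 4 of the 36 features and removed 32. Of these 4, 0 were called, and all 4 had an unadjusted p under 0.05, where 2.65% of all tested features combined such a p with a fold change of that size. The rule used the same counts, so nothing follows from these numbers about the 4.

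The 4 features in the test were all named above. MSTRG.13209 had a log2 fold change of 6.14 (standard error 1.42, adjusted p = 1.00 in edgeR's quasi-likelihood test), which was 3.26 without igf3-dsRNA 3. MSTRG.42108 had 6.67 (standard error 1.91, adjusted p = 1.00 by edgeR), and 3.01 without igf3-dsRNA 3. For CAFS_CommonCarp_T_00058530 the value was -5.38 (standard error 1.60, adjusted p = 1.00 by edgeR), and -1.25 without control 2. CAFS_CommonCarp_T_00104156 had 3.57 (standard error 1.41, adjusted p = 1.00 by edgeR), and its direction turned without igf3-dsRNA 3, to -0.61. All 4 had adjusted p = 0.999 in edgeR's test once the carrying library was left out.

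MSTRG.13209 was the one carried feature on which tests of the filtered table differed. Its adjusted p was 3.09e-06 with DESeq2, 0.00534 with edgeR's likelihood ratio test and 0.0111 with edgeR's exact test. Over all its alternatives the adjusted p ranged from 1.71e-13 without the filter to 1.00. The rule used the same counts, so these p-values carry no support for a difference between the groups. On TMM-scaled CPM the share of MSTRG.13209 was 89.6%, below the threshold. DESeq2 called 15 of the features to which it gave an adjusted p (0.258%, or 0.257% without its cutoff on Cook's distance), the likelihood ratio test 11 (0.188%) and the exact test 9 (0.154%). Among the 36 features they called MSTRG.13209 only (1 of 36). It is also 1 of the 3 features of the set without overlap of the groups in normalized counts, with CAFS_CommonCarp_T_00058530 and CAFS_CommonCarp_T_00134721. These 3 were 8.33% of the set, and 6.31% of the 4914 features had groups that did not overlap. For CAFS_CommonCarp_T_00134721 the groups were parted by 1 count in igf3-dsRNA 3 (0.378 normalized CPM) against 1 in control 3 (0.355). Both lie under the floor of 3 counts, and nothing is read from the share of 8.33%.

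Without the filter, the calls turned to the carried features. The quasi-likelihood test over all 38402 features with a count called 112 of them (0.292%), and 34 of the 36 were among these, 7 lncRNAs and 27 mRNAs. They made up 30.4% of the calls. Of the 34, 15 were lower and 19 higher in the treatment group. Each had the direction of the carrying library, which the rule had fixed. Because the features were chosen on these counts, their calls and p-values here and in the unfiltered tests below carry no support for a difference between the groups. Adjusted p-values of the 34 in edgeR's test reached from 1.19e-30 for CAFS_CommonCarp_T_00194728 to 0.0291 for CAFS_CommonCarp_T_00221082. MSTRG.19470 and CAFS_CommonCarp_T_00277887 were not called, at adjusted p = 0.253 and 0.0518 by edgeR. More widely, 106 of the 112 calls (94.6%) had over 50% of their normalized counts in 1 library. That share was not computed over all 38402 features, and a feature with 1 count always has it. Nothing is therefore read from the 94.6%. Of the 112, 35 were features that the filter would have kept. EdgeR's exact test without the filter called 75 features (0.195%), of which 32 were of the set (42.7%), and all 32 were also called by the quasi-likelihood test.

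DESeq2 on the same 38402 features gave an adjusted p to 10794 of them. Its rule on outlying counts (Cook's distance) gave no p to 28 of the 36, and 1 of the others, MSTRG.13209, was called (adjusted p = 0.0221 in DESeq2), where 0.195% of the features with an adjusted p were called. With that rule switched off, all 36 had an adjusted p and 3 were called, MSTRG.13209, CAFS_CommonCarp_T_00140448 and CAFS_CommonCarp_T_00134751, against 0.247% of all. The latter pair are the features with 0 counts outside the carrying library. Both DESeq2 fits on the unfiltered table were added after results were seen.

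**Figure D4:**
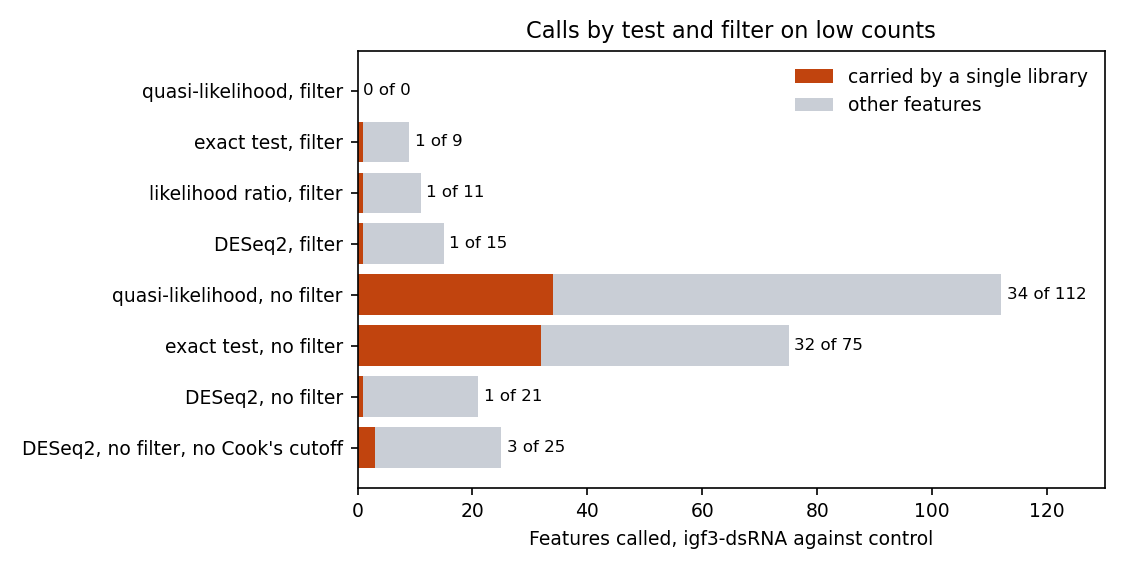
Features called between the groups (x axis, number) by test and by use of the filter on low counts, with the carried features in red and all others in grey. Numbers at the bars give carried features of all called, from 0 of 0 in the filtered quasi-likelihood test to 34 of 112 without the filter.

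The fit without a filter was repeated without the library that carried each feature, a step added after results were seen. With all libraries, the absolute log2 fold change of the 36 was 3.21 to 9.81 with a median of 6.24. Without the carrying library, 34 still had a count, and their median absolute value was 1.51, with values from -5.05 for MSTRG.19470 to 6.33 for CAFS_CommonCarp_T_00220460. The direction turned in 15 of the 34 and was kept in 19, of which 12 had an absolute value over 1. How often direction turns over all features was not computed, and some of these directions rest on counts under the floor. CAFS_CommonCarp_T_00237418 turned on 0 and 1 counts in control 1 and 2 against 2, 0 and 1 after igf3-dsRNA. Nothing is therefore read from the 15 and the 19. None was called (0 of 34 in edgeR's quasi-likelihood test). In the fits without control 1, 2 and 3, the share of all features called was 0.233%, 0.421% and 0.268%, and without igf3-dsRNA 1, 2 and 3 it was 0.216%, 0.268% and 0.208%. Of the 34, 7 had an unadjusted p under 0.05, 5 with the direction kept and 2 with it turned. Of all features, 2.3%, 3.18% and 2.41% had such a p without control 1, 2 and 3, and 2.08%, 2.18% and 2.24% without igf3-dsRNA 1, 2 and 3. The features were chosen on counts that include these libraries, so nothing is read from this difference in shares. The lncRNA MSTRG.51187 went from -6.47 to 0.96, and the mRNA CAFS_CommonCarp_T_00239240 from -3.66 to 2.55. MSTRG.42108 and MSTRG.13209 were at 3.03 and 3.28, with adjusted p = 0.362 and 0.281 in that edgeR fit. Both values set igf3-dsRNA 1 and 2 against the 3 control libraries. For MSTRG.42108 the value rested on igf3-dsRNA 1, at 48.2 CPM after TMM normalization. Igf3-dsRNA 2, at 0.977 CPM, was below control 1 and 2, at 4.70 and 3.96 CPM. For CAFS_CommonCarp_T_00128308, whose next library was control 2, the value was -3.71 (adjusted p = 0.190 by edgeR). Where all libraries of a group are at or near 0, these fitted values depend on the prior count of the fit and are no bounds.

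**Figure D5:**
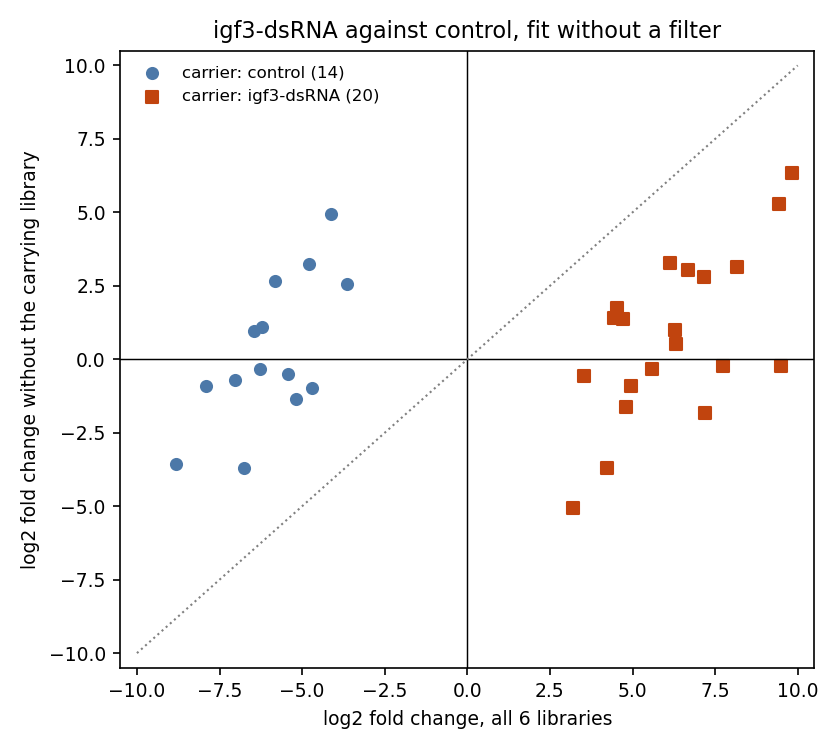
Fitted log2 fold change, igf3-dsRNA against control, of 34 features in the unfiltered fit with all 6 libraries (x axis) and without the carrying library (y axis). Circles are features carried by a control library and squares features carried by an igf3-dsRNA library, the dotted line marks equal values, and the 15 points at the upper left and lower right changed direction.

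Depth, RNA quality and tissue makeup were not tested for a part in these values. Libraries were strand-specific, but the sources used here do not say if strand entered the counting, and reads of overlapping features on opposite strands may not be told apart. Read pairs aligned to more than 1 place stood outside the feature counts, which leaves any feature with a near-identical copy uncertain.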

How the data were processed

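Gonad RNA depleted of ribosomal RNA was sequenced in 6 libraries, 3 per group. The authors aligned reads with HISAT2, assembled transcripts with StringTie 1.3.3b and deposited raw counts per feature, without normalization. The counting program is not given in the sources used here. The form of the closing lines is that of HTSeq-count, and pairs on no feature (91.4 to 92.6% of those on a feature, on none or ambiguous) were left out. The authors also deposited RPKM made from the same counts. Counts in the series table and in the separate files differed for 0 features in each library. Unused per-sample columns numbered 0. Feature lengths were recovered from the ratio of count to RPKM, whole within 4.26e-08 bp, for 38402 features.

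Groups were compared with edgeR 4.0.16 (R 4.3.3) by filterByExpr, TMM and glmQLFTest, and with DESeq2 1.42.0 and limma 3.58.1 as alternatives. The study's methods name edgeR 3.22.3 and the thresholds used here, with an adjusted p. Where the study reports its called lncRNAs and mRNAs, it gives p under 0.05 and names no adjustment. Whether its calls rest on adjusted or unadjusted p is therefore not clear. Its test within edgeR and any filter on low counts are not given. The main test here is therefore not a repeat of the study's analysis. Scripts were tested on simulated counts. The members and lists were chosen with earlier results of these data known. By rule, the text names up to 2 lncRNAs and 2 mRNAs of most counts per library, those with study primers, those at the thresholds, one found in a single library and those tested with the lowest p. Others named were chosen after their values were seen. Alternatives were other shares and count limits, TMM-scaled CPM, RLE factors, no filter, a minimum of 10 counts per library, exact and likelihood ratio tests, the replicate number as a block, limma on log2(RPKM + 1) or log2(RPKM + 0.1), and each library left out.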

Additional observations from a re-analysis of the deposited data

How the results depend on the processing

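Depth limits single values to the floor of 3 counts, and a carried feature with few counts elsewhere is near it. A share of 80% gave 60 features (23 carried by control libraries). A share of 95% gave 24 features (10 by control libraries), 5 of them lncRNAs. The set had 56 features (24 by control libraries) with at least 50 counts and 23 with at least 200 counts. With each library left out it had 31 to 44 features, of which 8 to 20 were carried by control libraries, the lowest without control 3. Calls between the groups, 0 in the main test, were 15 with DESeq2 with or without its cutoff on Cook's distance, 9 with the exact test and 11 with the likelihood ratio test (1 of the set in each). They were 112 without a filter (34 of the set) and 75 with the exact test without a filter (32). With DESeq2 on all features, added after seeing the data, they were 21 and, without the cutoff, 25 (1 and 3 of the set). They were 0 with the other alternatives and with each library left out of the filtered main test. With each library left out of the unfiltered fit, 75 to 145 features were called. The log2 fold change of CAFS_CommonCarp_T_00104156 ranged from -0.61 to 4.15 with each library left out. Deviations of libraries with the same number had correlations of -0.0010 to 0.0985, the highest for control 3 with igf3-dsRNA 3. Between libraries of unlike number they were -0.0879 to 0.0686. With the replicate number as a block 0 features were called. The cause of these changes was not tested.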

Other observations

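Some features with study primers fell short of the threshold of 90%, and were singled out after their values were seen. MSTRG.7538 had a share of 89.0%, where control 1 to 3 gave 259, 5 and 2343 counts and igf3-dsRNA 1 to 3 gave 6, 11 and 11. CAFS_CommonCarp_T_00213038 had 88.8%, where the controls gave 6, 10 and 749 counts and the igf3-dsRNA libraries 18, 3 and 48. The mRNAs CAFS_CommonCarp_T_00128677 and CAFS_CommonCarp_T_00253405 had 437 and 482 counts in igf3-dsRNA 3 and 91 and 123 in igf3-dsRNA 1, with at most 15 in any other library, and thus the same highest and next library as MSTRG.42108 and MSTRG.13209. Of the 40 features with primers, 15 had a share of at least 80% with at least 100 counts.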
